A study of Homo sapiens with 6 samples.

Results

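The mRNA levels of 42 cell cycle genes were examined in Hep3B cells: the D, E, A, B, F and H cyclins, the cyclin-dependent kinases (CDKs) they bind, the CDC25 phosphatases, the WEE1 and PKMYT1 kinases, SKP2 and the CKS proteins, and the E2F, DP, retinoblastoma (RB) and DREAM complex genes. Members were taken by gene symbol, and all 42 were found among the 27009 genes of the deposited table. Hep3B is a human hepatocellular carcinoma line, and both groups lacked endogenous PD-L1 through knockout. The control group (vector, 3 libraries) had received the empty pCDH-CMV-Puro lentiviral vector, and the other group (nPD-L1, 3 libraries) the same vector carrying a PD-L1 with 2 changed residues, which resides in the nucleus. The cells were stable lines made by lentiviral infection, the transgene was driven by a CMV promoter, and the labels do not state whether the 3 libraries of a group came from separate cultures, so the p values below measure the spread between these libraries only. The comparison asked which of these regulators differed when nuclear PD-L1 was present, and whether those of G1 behaved like those of G2 and mitosis.

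Progress through the cell cycle depends on CDKs that are switched on by cyclins. In G1, cyclin D with CDK4 or CDK6 and then cyclin E with CDK2 phosphorylate the pocket proteins RB1, RBL1 (p107) and RBL2 (p130), which releases E2F factors and the genes they drive for DNA replication. Later, cyclin A and cyclin B with CDK1 drive entry into mitosis: WEE1 and PKMYT1 hold CDK1 inactive by phosphorylation and the CDC25 phosphatases remove that block. The MuvB core (LIN9, LIN37, LIN52, LIN54 and a further subunit) joins RBL1 or RBL2, E2F4 or E2F5 and DP in the DREAM complex, which represses cell cycle genes in resting cells, and joins MYBL2 and then FOXM1 to activate mitotic genes. Liver cancer cells commonly carry a disabled RB pathway or amplified cyclin genes.

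Genes of G1/S are known for E2F sites in their promoters and genes of G2/M for CCAAT boxes and a CHR. The stretches below show examples of these motifs. The members were divided into G1 and G2/M regulators by role and not by motif. RefSeq promoter sequences (GRCh38.p14) matched 33 of the 42 members, and CCND1, CCND2, CCNE2, CDK2, E2F5, E2F8, FOXM1, PKMYT1 and WEE1 had no entry. The 250 bases before each start were searched on both strands for an E2F site (TTTCCCGC, TTTCGCGC, TTTGCCGC or TTTGGCGC), for the CHR, or cell cycle genes homology region (TTTGAA or TTTAAA), to which the MuvB core binds through LIN54, and for a CCAAT box (CCAAT). No overlap between different motifs occurred in the stretches printed. Capitals mark the matches, and each stretch reads 5′ to 3′ along the gene. For the genes with an annotated exon before the RefSeq start, 30 bases around the match are printed, and for the others 120 bases up to the start. The first set shows G2/M regulators with a CHR match close to the start.
CCNB1, chr5:69167107-69167136, + strand: gagcagtgcggggTTTAAAtctgaggctag
CCNB2, chr15:59105104-59105133, + strand: aagcgacgcggtaTTTGAAtcctggaacaa
CDK1, chr10:60778448-60778477, + strand: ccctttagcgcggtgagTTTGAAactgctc
CKS2, chr9:89311075-89311194, + strand: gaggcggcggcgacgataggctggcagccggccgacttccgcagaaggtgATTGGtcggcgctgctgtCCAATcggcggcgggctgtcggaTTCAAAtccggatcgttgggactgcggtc
The second set shows a G1 phosphatase and the 3 activator E2F genes with an E2F match close to the start.
CDC25A, chr3:48188418-48188537, - strand: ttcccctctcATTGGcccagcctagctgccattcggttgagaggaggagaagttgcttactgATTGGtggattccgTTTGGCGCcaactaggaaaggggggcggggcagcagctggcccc
E2F1, chr20:33686389-33686418, - strand: GCGGCAAAaaggaTTTGGCGCgtaaaagtg
E2F2, chr1:23531234-23531353, - strand: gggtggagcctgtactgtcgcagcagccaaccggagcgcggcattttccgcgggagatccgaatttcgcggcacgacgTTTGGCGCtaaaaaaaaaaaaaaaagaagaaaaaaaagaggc
E2F3, chr6:20401759-20401878, + strand: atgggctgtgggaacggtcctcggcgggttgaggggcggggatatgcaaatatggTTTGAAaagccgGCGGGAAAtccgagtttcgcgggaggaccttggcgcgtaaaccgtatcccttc

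The CHR match began 30 bases before the start in CCNB1 and 29 bases before it in CCNB2 and CKS2. In CKS2 it lies on the opposite strand. CDK1 and E2F3 each have 2 listed starts, of which the later one is shown for CDK1 and the earlier one for E2F3. CHR letters stood in 6 of the 9 G2/M regulators with a sequence (CCNB1, CCNB2, CCNF, CDC25C, CDK1 and CKS2), in 2 of 7 G1 regulators and in 25.5% of all 27305 genes with a promoter entry. CCAAT letters stood in 8 of 9 G2/M regulators, in 3 of 7 G1 regulators and in 37.0% of all genes. E2F letters stood in 6 of the 15 E2F, DP, pocket and MuvB genes with a sequence (E2F1, E2F2, E2F3, LIN52, RBL1 and TFDP1). They stood in 1 of 7 G1 regulators (CDC25A), in 1 of 9 G2/M regulators (CDK1) and in 3.40% of all genes. These are matches of letters and not measured binding sites.

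The values were scaled reads: read numbers per gene over the size factor of the library. They summed to between 18082164 and 19682128 in the 6 libraries, and the 4 libraries whose whole reads could be recovered held 17427519 to 22253295. Differences were tested with limma on log2(value + 1) across the 15076 genes that reached 10 scaled reads in 3 or more libraries, with Benjamini-Hochberg adjustment over all of them and a gene called at an adjusted p under 0.05. CD274, which encodes PD-L1, had 28.3, 38.4 and 47.8 scaled reads with vector and 16.8, 19.2 and 30.9 in the nPD-L1-labelled libraries, so it was not higher where a PD-L1 sequence had been introduced, and every direction given here rests on the labels. Of 13 hepatocyte markers looked for, 12 were in the deposited table and AFP was not. Of the 12, 7 stayed under 10 in every library, ALB, APOA1, APOB, TF and TTR among them, whereas FGA ran from 1861 to 3286 and FGB from 962 to 1540. HNF4A, a liver transcription factor, was the hepatocyte marker called: it had 19.2, 11.3 and 6.24 with vector and 51.3, 51.6 and 33.8 in the nPD-L1-labelled libraries (log2 fold change 1.91, limma adjusted p = 0.023). The markers summed to 3209 to 5162 with vector and 3066 to 3600 in the nPD-L1-labelled libraries. Of the other marker lists, the fibroblast genes summed to 174 to 247 with vector and 594 to 659 in the nPD-L1-labelled libraries. COL1A1 ran from 49.9 to 82.8 with vector and from 445 to 487 in the nPD-L1-labelled libraries (log2 fold change 2.84, called higher). LUM, the other fibroblast gene tested, was not called, at 99.9, 182 and 111 with vector and 112, 139 and 161 in the nPD-L1-labelled libraries. The endothelial and leukocyte genes stayed under 92 in their sums in each library. The part of these markers in the results was not tested.

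Of the 42 members, 41 were tested and 1, WEE1, was called. It rose, no member was called lower, and none reached a log2 fold change of 1 in size. Among all 15076 genes, 4.04% were called higher and 0.922% lower, 4.96% in either direction, and 2.48% were called and 2-fold or more apart. With limma, an unadjusted p under 0.05 was reached by 6 members in the higher direction (CCND1, CCNE1, CCNE2, WEE1, E2F3 and LIN54), where 9.53% of all genes did, and by 2 in the lower direction (CDK4 and PKMYT1), where 4.71% did. The libraries of both groups did not overlap for 7 members that were higher (12.0% of all genes) and for 5 that were lower (8.54% of all genes), that is 17.1% and 12.2% of the 41 members. On the 4 libraries with recovered reads, edgeR called 0 members and DESeq2 called 1 higher, and both called 0 lower. The 95% intervals of all 41 members excluded a 2-fold change in either direction, and the bound farthest from 0 was 0.88 on the log2 scale, for WEE1.

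**Figure D1:**
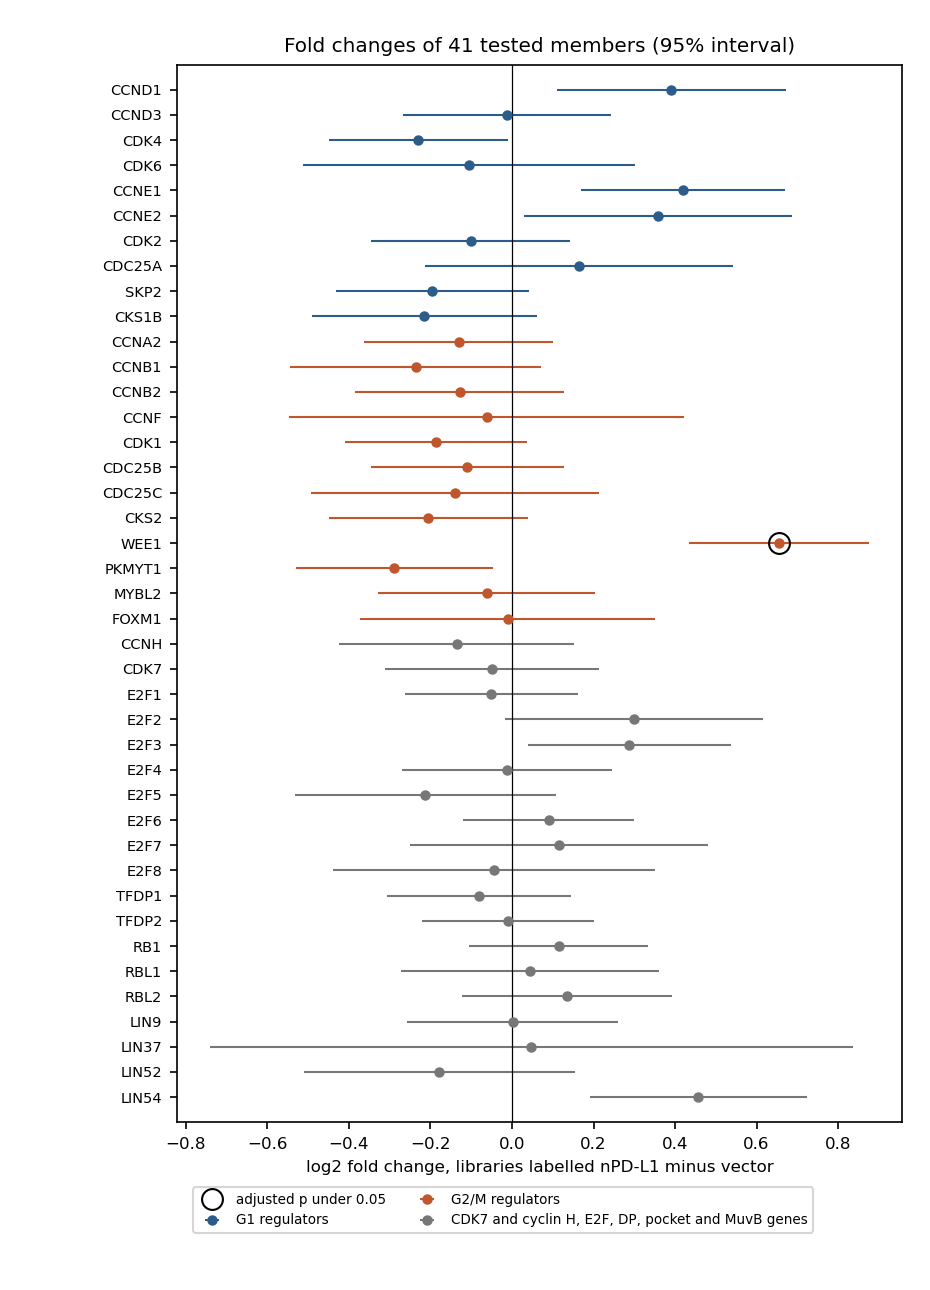
Log2 fold change of each of the 41 tested members, nPD-L1-labelled libraries minus vector (points, with 95% intervals from limma), coloured by G1, G2/M and other regulators. Only WEE1, at 0.66, has an adjusted p under 0.05 (circled), and no interval reaches a log2 fold change of 1 in size.

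WEE1, the kinase that inhibits CDK1 before mitosis (chromosome 11, 9573681 to 9593457), was the member that moved most. It had 1466, 1439 and 1293 scaled reads in vector replicates 1, 2 and 3 and 2193, 2073 and 2343 in nPD-L1 replicates 1, 2 and 3. The lowest of the second group exceeded the highest of the first. The means were 1399 ± 93.0 and 2203 ± 135 (SD, n = 3), which gave a log2 fold change of 0.66 (standard error, SE, 0.10, limma adjusted p = 0.0028). On the 4 libraries with recovered reads the log2 fold change was 0.73 or 0.74, and the call was lost with limma (adjusted p = 0.059) and edgeR (adjusted p = 0.055) and kept with DESeq2 (adjusted p = 0.014). Over all alternatives the adjusted p ran from 0.000185 to 0.0593. No other gene of the table with a mean of at least 10 overlaps WEE1.

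PKMYT1, the membrane-bound kinase that shares the task of holding CDK1 inactive (chromosome 16, 2968024 to 2980539), had values on the other side. Its scaled reads were 1586, 1483 and 1526 with vector and 1435, 1163 and 1179 in the nPD-L1-labelled libraries. The groups did not overlap, but the log2 fold change of -0.29 (SE 0.11) did not pass the adjustment (limma adjusted p = 0.23). PAQR4, which overlaps it on the other strand and whose reads the kit could not tell apart by strand, had 24.8% of its mean and a log2 fold change of 0.11. The WEE1 to PKMYT1 ratio of scaled reads was 0.924, 0.970 and 0.847 with vector and 1.53, 1.78 and 1.99 in the nPD-L1-labelled libraries. The ratios of the 3 libraries of each group did not overlap, which had to follow because WEE1 lay higher and PKMYT1 lower without overlap. The exact two-sided permutation p of 0.1, the smallest that 3 against 3 libraries allow, was thus fixed by the choice of pair. It was 0.117 after adjustment over the 7 pairs compared, which were chosen after their values were seen. The ratio adds no support beyond the values of both genes.

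The other G2/M regulators lay close together and below 0. CCNB1, the main mitotic cyclin, had 5182, 4245 and 5225 scaled reads with vector and 5037, 3658 and 3819 in the nPD-L1-labelled libraries. Here the nPD-L1 replicate 1 was inside the vector range and the other 2 were below it, and the log2 fold change was -0.24 (SE 0.14, limma adjusted p = 0.52). CDK1, its kinase, had 3175, 3203 and 3582 with vector and 3105, 2692 and 2954 in the nPD-L1-labelled libraries, without overlap (log2 fold change -0.19, limma adjusted p = 0.47). CKS2, a small CDK-binding protein needed for CDK1 function, had 2124, 2454 and 2136 with vector and 2080, 2028 and 1722 in the nPD-L1-labelled libraries, also without overlap (log2 fold change -0.21, limma adjusted p = 0.47).

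CCNB2 and CCNA2 had log2 fold changes of -0.13 each, CDC25C of -0.14 and CDC25B of -0.11. CDC25C and CCNA2 are uncertain, because other genes overlap them on the other strand. FAM53C had 189% of the mean of CDC25C with a log2 fold change of -0.15, and EXOSC9 had 63.5% of that of CCNA2 with -0.01. How many of these reads fall within the members was not measured. CDC25B, a phosphatase that activates CDK1, accounted for 83.5% of the summed CDC25 level per kilobase, CDC25A for 9.26% and CDC25C for 7.27%. Among the G2/M regulators CCNF, the F-box cyclin of an SCF ubiquitin ligase, varied most between the libraries of a group, with 675, 419 and 704 scaled reads with vector and 741, 489 and 483 in the nPD-L1-labelled libraries. The factors that activate mitotic genes were close to 0, with log2 fold changes of -0.06 for MYBL2 (95% interval -0.33 to 0.20) and -0.01 for FOXM1 (-0.37 to 0.35). FOXM1 had 2574, 1791 and 2861 scaled reads with vector and 2665, 2201 and 2199 in the nPD-L1-labelled libraries, so that the vector libraries alone covered the whole range. RHNO1, on the other strand, had 48.0% of its mean.

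The G1 regulators lay on both sides of 0, and none was called. CCND1, the cyclin D that partners CDK4 and CDK6 (chromosome 11, 69641087 to 69654474), had 9071, 7637 and 10587 scaled reads with vector and 12248, 11486 and 11756 in the nPD-L1-labelled libraries. All 3 of the latter were above the highest vector library, and the log2 fold change was 0.39 (SE 0.13, limma adjusted p = 0.14). Without vector replicate 3, the highest of the vector libraries, its adjusted p was 0.031 (range over all alternatives 0.0311 to 0.853). CCND1 made up 91.7% of the summed D cyclin level per kilobase. CCND3 made up 8.34% and had a log2 fold change of -0.01 (95% interval -0.27 to 0.24). CCND2 was not tested: it was at 0 in all vector libraries and at 2.02 or less in the others.

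CDK4, the kinase partner of cyclin D (chromosome 12, 57747727 to 57756013), had 2947, 2892 and 2623 scaled reads with vector and 2441, 2540 and 2237 in the nPD-L1-labelled libraries. It thus lay lower without overlap while its cyclin lay higher (log2 fold change -0.23, SE 0.10, limma adjusted p = 0.32). Of the genes that overlap CDK4 on the other strand, TSPAN31 had the most reads, 14.6% of the CDK4 mean, with a log2 fold change of 0.22. LTO1, on the other strand of CCND1, had 4.78% of the CCND1 mean with 0.27. The CCND1 to CDK4 ratio of scaled reads was 3.08, 2.64 and 4.04 with vector and 5.02, 4.52 and 5.26 in the nPD-L1-labelled libraries. That these did not overlap had to follow from the values of both genes and adds no support. The pair was also among the 7 chosen after their values were seen. CDK6, the other cyclin D kinase, spread widely with 1985, 1310 and 2330 with vector and 1718, 1521 and 1859 in the nPD-L1-labelled libraries (log2 fold change -0.11, 95% interval -0.51 to 0.30).

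CCNE1, the cyclin that activates CDK2 at the G1/S boundary (chromosome 19, 29811898 to 29824308), had 398, 463 and 426 scaled reads with vector and 567, 557 and 594 in the nPD-L1-labelled libraries. The groups were well apart, at 429 ± 32.8 and 573 ± 19.1 (SD, n = 3), with a log2 fold change of 0.42 (SE 0.11, limma adjusted p = 0.068). Without vector replicate 2 the adjusted p was 0.015 (range over all alternatives 0.0148 to 0.997). CCNE2, the second cyclin E, had 165, 147 and 169 with vector and 188, 220 and 208 in the nPD-L1-labelled libraries, without overlap (log2 fold change 0.36, limma adjusted p = 0.29). INTS8, which overlaps CCNE2 on the other strand, had 556% of its mean and a log2 fold change of -0.02. NDUFAF6, also on the other strand, had 187% of the CCNE2 mean and 0.01. The CCNE2 value is thus the less certain of the pair, and no gene with a mean of at least 10 overlaps CCNE1.

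CDK2 itself had a log2 fold change of -0.10 (95% interval -0.35 to 0.14), and CDC25A, the phosphatase that activates it, of 0.16 (-0.21 to 0.54). SKP2, which marks the CDK inhibitor p27 for destruction, had 682, 656 and 758 scaled reads with vector and 630, 605 and 592 in the nPD-L1-labelled libraries. These did not overlap (log2 fold change -0.20, limma adjusted p = 0.48). CKS1B, its cofactor, had 3240, 4091 and 2949 with vector and 3062, 2922 and 2795 in the nPD-L1-labelled libraries (log2 fold change -0.21, limma adjusted p = 0.51), with vector replicate 2 standing above the rest. A copy of CKS1B elsewhere in the genome, CKS1BP3, had 2.12% of its mean, so reads of CKS1B may be split.

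**Figure D2:**
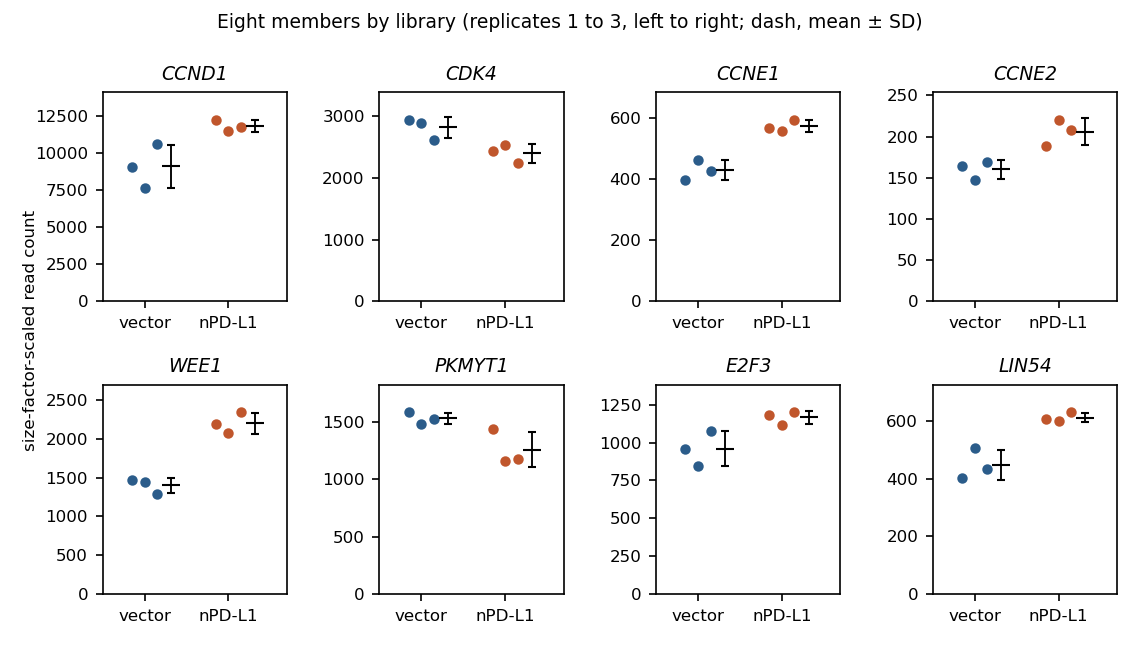
Scaled reads by library of the 8 members with an unadjusted p under 0.05 (blue, vector replicates 1 to 3; orange, nPD-L1 replicates 1 to 3; dashes and bars, mean ± SD; axes start at 0). In all 8 the groups do not overlap, WEE1 is the widest apart relative to its level, at 1293 to 1466 against 2073 to 2343, and CDK4 and PKMYT1 are the 2 that lie lower.

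Among the E2F factors, which switch genes of DNA replication on or off, the activators divided. E2F1 had a log2 fold change of -0.05 (95% interval -0.26 to 0.16) and made up 74.8% of the summed activator level per kilobase. E2F3 (chromosome 6, 20401906 to 20493715) had 957, 844 and 1078 scaled reads with vector and 1181, 1118 and 1200 in the nPD-L1-labelled libraries, without overlap (log2 fold change 0.29, SE 0.11, limma adjusted p = 0.25). E2F2 had 639, 523 and 770 with vector and 836, 737 and 778 in the nPD-L1-labelled libraries (log2 fold change 0.30, limma adjusted p = 0.39), and vector replicate 3 reached into the nPD-L1 range. The summed activator level per kilobase was 1306, 1324 and 1331 with vector and 1423, 1342 and 1291 in the nPD-L1-labelled libraries, so the groups overlapped.

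The repressive E2F genes lay between -0.21 (E2F5) and 0.11 (E2F7) in log2 fold change. C8orf59, which overlaps E2F5 on the other strand, had 96.9% of its mean and a log2 fold change of -0.19, so E2F5 is uncertain. E2F4, the main partner of RBL1 and RBL2, was at -0.01 (95% interval -0.27 to 0.24). E2F6, a repressor that works without pocket proteins, was the member with the least spread relative to its level. It had 808, 794 and 811 scaled reads with vector and 848, 856 and 864 in the nPD-L1-labelled libraries, without overlap, for a log2 fold change of only 0.09 (limma adjusted p = 0.73). The atypical repressors E2F7 and E2F8 varied more within a group than between groups, E2F8 with 454, 332 and 565 with vector and 441, 393 and 448 in the nPD-L1-labelled libraries. The DP partners of E2F, TFDP1 and TFDP2, were at -0.08 and -0.01.

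RB1, the retinoblastoma protein that restrains E2F1, E2F2 and E2F3 (chromosome 13, 48303726 to 48599436), had 1070, 1112 and 1224 scaled reads with vector and 1275, 1191 and 1217 in the nPD-L1-labelled libraries. The groups overlapped (log2 fold change 0.11, 95% interval -0.10 to 0.33). RBL1 and RBL2 had log2 fold changes of 0.04 and 0.13, with an overlapping gene, AKTIP, at 85.8% of the mean of RBL2. Per kilobase, RBL1 made up 43.4% of the summed pocket protein level, RB1 37.9% and RBL2 18.7%. Hep3B is widely described as lacking a functional RB protein. Reads lay on RB1 in all 6 libraries, which does not show whether a full-length protein is made, and several defining hepatocyte markers were near 0 (above), so the identity of the line rests on the labels.

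LIN54, the subunit through which the MuvB core binds a CHR (chromosome 4, 82909973 to 83012926), had 405, 507 and 434 scaled reads with vector and 609, 600 and 632 in the nPD-L1-labelled libraries. The groups did not overlap, and the log2 fold change of 0.46 (SE 0.12) had an adjusted p of 0.061 from limma. It was 0.0047 without vector replicate 2, the highest vector library (range over all alternatives 0.00466 to 0.964). THAP9, which overlaps LIN54 on the other strand, had 21.1% of its mean and a log2 fold change of -0.32. The other MuvB genes were at 0.00 (LIN9), 0.05 (LIN37) and -0.18 (LIN52). LIN37 was the least abundant member tested, with 16.0 to 29.1 scaled reads, and its interval of -0.74 to 0.84 was the widest. CDK7 and CCNH, the kinase and cyclin that activate other CDKs, were at -0.05 and -0.14. RASA1, on the other strand, had 98.6% of the mean of CCNH, so the latter is uncertain.

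The G1 and G2/M regulators were then set side by side. The median log2 fold change was -0.06 over the 10 tested G1 regulators, of which 4 were above 0 and 6 below. It was -0.13 over the 12 G2/M regulators, of which WEE1 was above 0 and 11 below. Over the 17 E2F, DP, pocket and MuvB genes it was 0.04, and over all genes tested -0.02, with 7041 above 0 and 8035 below. Leaving out nPD-L1 replicate 1 moved the G2/M median to -0.23, leaving out nPD-L1 replicate 2 moved it to -0.07, and on the 4 libraries with recovered reads it was -0.04. These medians describe the members and were not tested.

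By library, the G2/M regulators followed single libraries more than the groups. Their median deviation from the mean of the 6 libraries, on the log2(value + 1) scale, was 0.14, -0.05 and 0.13 in vector replicates 1, 2 and 3 and 0.14, -0.18 and -0.15 in nPD-L1 replicates 1, 2 and 3. Thus nPD-L1 replicate 1 lay with vector replicates 1 and 3, and vector replicate 2 lay between them and the other 2. In 11 of the 12 G2/M regulators the highest library labelled nPD-L1 was replicate 1, which held for 36.4% of all genes tested. In 8 of the 12 the lowest vector library was replicate 2, against 41.4% of all genes. WEE1 was the exception to the first pattern, with its highest value in nPD-L1 replicate 3. The G1 regulators had medians of 0.05, -0.10 and 0.02 with vector and 0.07, -0.04 and -0.01 in the nPD-L1-labelled libraries.

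**Figure D3:**
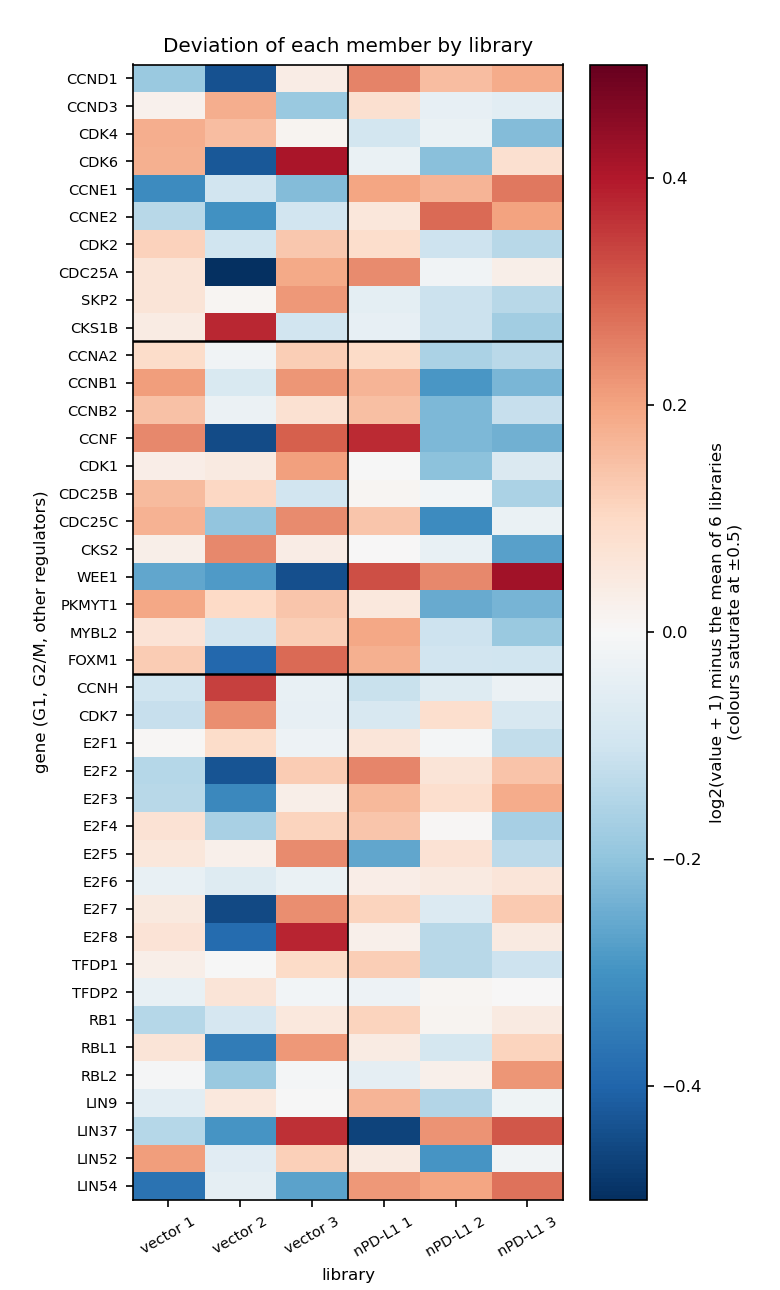
Deviation of log2(value + 1) from the mean of the 6 libraries for each tested member (rows: G1, G2/M, then other regulators; columns: libraries; red higher, blue lower). WEE1, CCNE1 and LIN54 differ in colour between the groups, whereas most G2/M rows from CCNA2 to FOXM1 are red in vector replicates 1 and 3 and in nPD-L1 replicate 1.

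**Figure D4:**
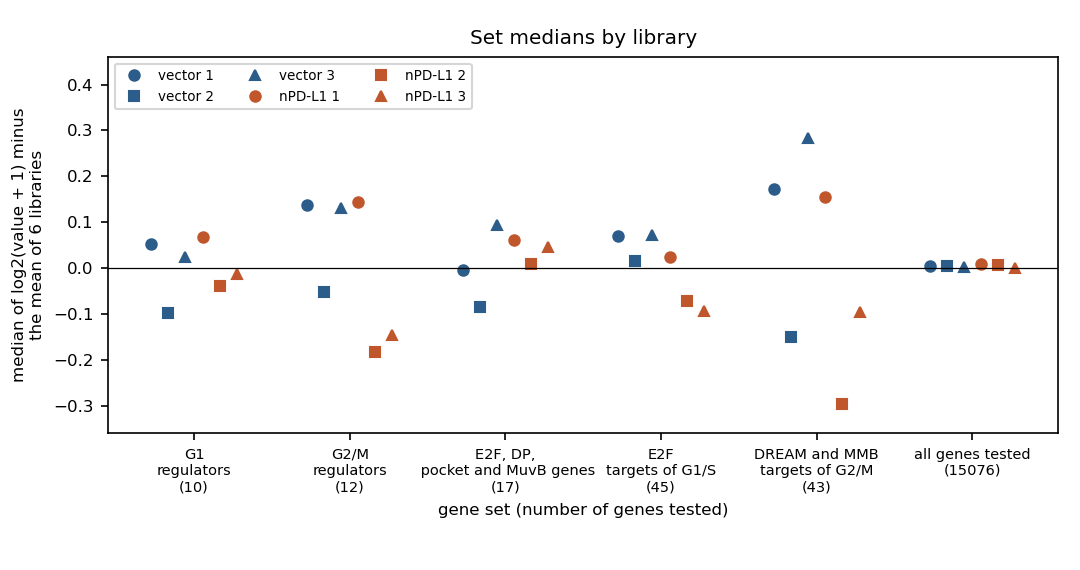
Median deviation in each library (blue, vector; orange, nPD-L1) of the member classes, of 2 target lists and of all genes tested. The G2/M regulators lie at 0.14 in both vector replicate 1 and nPD-L1 replicate 1, the target genes of DREAM and MMB spread from -0.30 to 0.28, and all genes lie near 0.

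The genes that these regulators control were counted from 2 lists. Of 45 E2F targets of G1/S, limma called 0, where 4.96% of all genes were called. At an unadjusted p under 0.05 limma found 1, which was lower, where 4.71% of all genes were. Their median log2 fold change was -0.10, with 38 below 0. The groups did not overlap for 11 of the 45 in the lower direction (8.54% of all genes) and for 0 in the higher (12.0% of all genes). Of 43 G2/M targets of DREAM and of the complex of MYBL2 with MuvB (MMB), 1 was called, KIF2C, a kinesin that depolymerizes microtubules. It had 1631, 1256 and 1614 scaled reads with vector and 2475, 2278 and 2359 in the nPD-L1-labelled libraries, well apart (log2 fold change 0.67, limma adjusted p = 0.0067). Without nPD-L1 replicate 1, the call of KIF2C was the one lost and 0 were called, and without vector replicate 2 there were 4 calls. At an unadjusted p under 0.05 KIF2C was the only target higher, where 9.53% of all genes were. In the lower direction 7 of the 43 reached it, where 4.71% of all genes did. The groups did not overlap for 6 of the 43 in the lower direction and for 2 in the higher. The list median was -0.18, with 34 below 0. In 40 of the 43 the highest library labelled nPD-L1 was replicate 1 and in 39 the lowest vector library was replicate 2, the same libraries as for the G2/M regulators.

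Further genes of the machinery were counted from 3 lists. Of 30 other cyclins and CDKs tested, 1 was called, CDK17 (615, 541 and 668 scaled reads with vector, and 927, 1066 and 1041 in the nPD-L1-labelled libraries, with a log2 fold change of 0.74 and an adjusted p of 0.0035 from limma). Of 30 ubiquitin ligase genes of the cell cycle, limma called 0, and 2 were higher and 2 lower at an unadjusted p under 0.05. Among all genes tested, 4.96% were called, and at an unadjusted p under 0.05 from limma 9.53% were higher and 4.71% lower. Of 5 CDK inhibitor genes tested, CDKN1A (p21) rose and CDKN1B (p27, the target of SKP2) fell. CDKN1A had 2747, 3164.5 and 2380 with vector and 5967, 7149 and 6190 in the nPD-L1-labelled libraries (log2 fold change 1.22, limma adjusted p = 0.000169). CDKN1B had 1197, 1294 and 1350 with vector and 535, 818 and 612 in the nPD-L1-labelled libraries (log2 fold change -0.99, limma adjusted p = 0.0025).

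The members spanned a wide range of levels. Per kilobase of gene length, CKS2 was highest, at 3651 ± 306 scaled reads with vector and 3170 ± 316 in the nPD-L1-labelled libraries (SD, n = 3). CCND1 came next at 1884 ± 305 and 2449 ± 80.0, then CCNB1 at 1909 ± 216 and 1631 ± 295. CCND1 and CCNB1 overlapped in the vector libraries but not in the nPD-L1-labelled libraries. CDC25B, CKS1B, MYBL2 and E2F1 followed, at 1525, 1466, 1379 and 1017 with vector. WEE1 stood at 151 ± 10.1 with vector, the 23rd of the 42 in the order, and at 238 ± 14.6 in the nPD-L1-labelled libraries, and PKMYT1 at 304 ± 10.3 and 250 ± 30.4. Of the tested members, 33 were above 100 scaled reads per kilobase, and the median member stood above 71.8% of all genes tested.

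**Figure D5:**
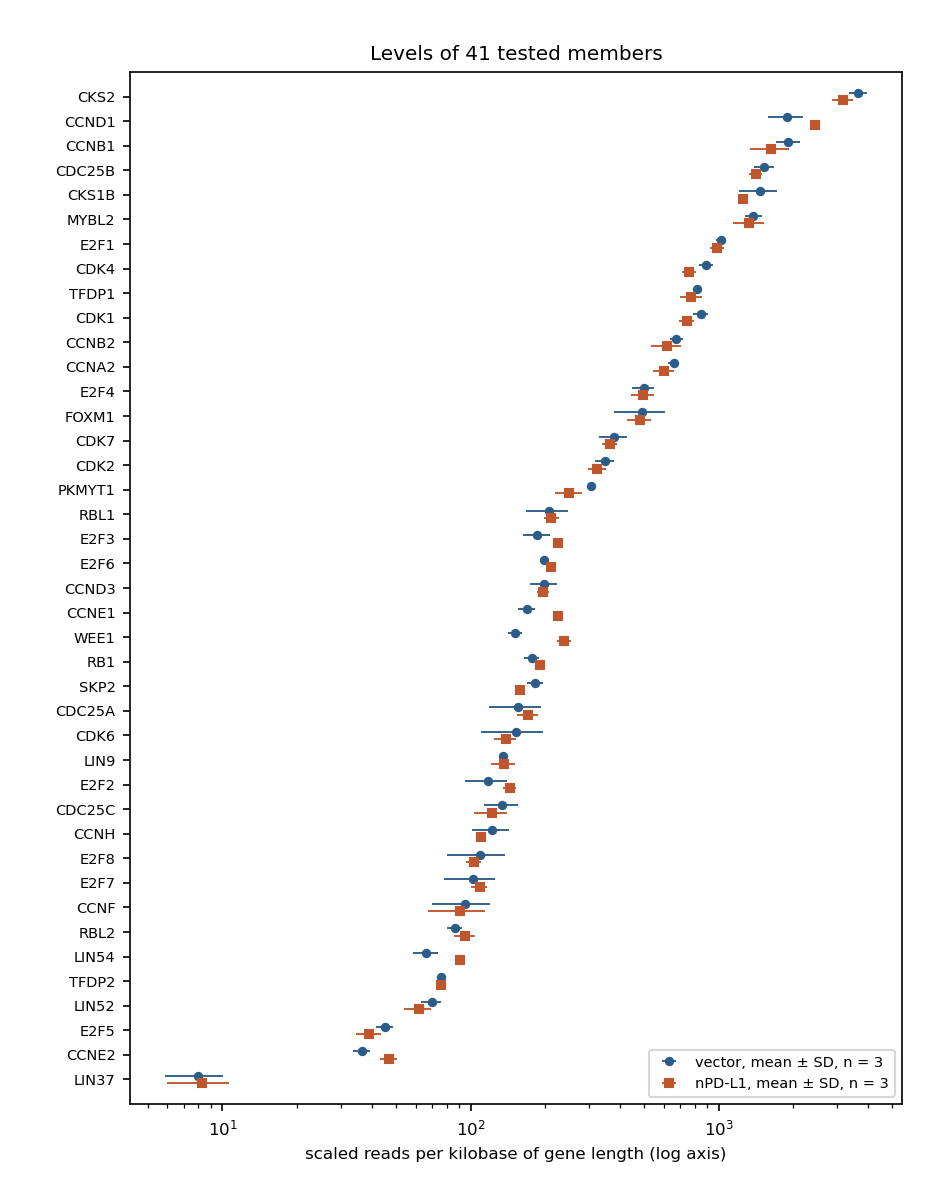
Scaled reads per kilobase of gene length (log axis) of the 41 tested members, ordered by mean level (blue circles, vector; orange squares, nPD-L1; bars, SD of 3 libraries). Levels run from CKS2 at 3651 to LIN37 at 7.96 with vector, and WEE1 shows the clearest gap between the groups, 151 against 238.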

How the data were processed

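RNA sequencing was done by a company on 6 libraries (NEBNext Ultra kit, which does not mark strand), and groups and replicate numbers came from the sample titles. The submitters' processing notes name CASAVA, HISAT2 2.0.5 and hg38, and a counting tool is not given in the sources used here. The authors' deposited value per library is a signal: read numbers per gene over a size factor of the library, although the table calls them raw counts. The table also holds group means, a log2 fold change and the p-values, raw and adjusted, of the authors' own comparison, which were not used.

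Whole reads were recovered in 4 libraries (all nonzero values within 0.1 of a whole multiple of the value of 1 read). In vector replicate 1 and nPD-L1 replicate 2 that value was too close to 1 to be accepted. So limma 3.58.1 (R 4.3.3, trend and robust moderation) on log2(value + 1) was the main test, over genes that reached 10 scaled reads in 3 or more libraries. edgeR 4.0.16 and DESeq2 1.42.0 were run on the recovered reads of 4 libraries. Fold changes on this scale understate changes of low genes. The main limma fit and the edgeR and DESeq2 fits were also run on simulated data.

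All 42 members have the same start and end in GENCODE release 29 as in the table. Of them, 13 are overlapped by another gene on the other strand with a mean of at least 10. Overlap was taken from gene start and end, and the reads within a shared stretch were not counted apart. The exon annotation of that release decided where only 30 bases of a promoter were printed. Members and lists were chosen with earlier results of these data known. Named were all members, CD274, called genes of the lists, and some markers and overlapping genes that were not called. Alternatives were pseudocounts of 0.1 and 10, filters, scalings, non-robust moderation, the replicate number as a block, a gene length trend, each library left out, other thresholds and, chosen after seeing the data, limma on the same 4 libraries.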

Additional observations from a re-analysis of the deposited data

How the results depend on the processing

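The number of members called higher was 1 (WEE1). It was 2 without a filter on low values and with the gene length trend removed, 0 on 4 libraries with limma and with edgeR, 0 with a log2 fold change of at least 1 also required, 6 at an unadjusted p, and from 1 to 3 with each library left out (3 without vector replicate 2). Members called lower were 0 except at an unadjusted p (2), and 0 with each library left out. E2F targets called were 0 except at an unadjusted p (1). DREAM and MMB targets called went from 1 to 0 on 4 libraries with limma and with edgeR and with the fold threshold, to 8 at an unadjusted p, and to between 0 and 4 with each library left out. Over all genes, 609 higher and 139 lower became 254 and 53 (limma on 4 libraries), 264 and 61 (edgeR), 333 and 85 (DESeq2), 306 and 68 (fold threshold), 1436 and 710 (unadjusted p), and 350 to 793 and 77 to 244 with each library left out. The median log2 fold change of G1 regulators, -0.06, was 0.023 with limma on 4 libraries and from -0.09 to 0.01 with each library left out. That of G2/M regulators ran from -0.23 to -0.07 with each library left out and was -0.04 (limma), -0.03 (edgeR) and -0.04 (DESeq2) on 4 libraries. The causes were not tested. Of 738 values of single members under the alternatives, 721 were counted as unchanged. For WEE1 this meant that it stayed called, whatever the shift. For the other members it meant that they stayed uncalled and moved by less than the spread between libraries. Of the rest, 8 passed the threshold (CCND1, CCNE1 and LIN54), 7 moved without passing it, 2 lost it (WEE1), and no called value changed sign. The sign changed in 59 of the 738, in 17 members that were not called, the largest of which had a log2 fold change of 0.16 in size.

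Whether the replicate numbers pair the libraries is not stated in the labels and was not settled. Deviations from the group means correlated at -0.01, 0.23 and 0.13 between libraries with the same number. Between libraries with different numbers the correlations ran from -0.22 to 0.08. With the replicate block, 4 members (WEE1, CCND1, CCNE1 and LIN54), 4 DREAM and MMB targets, and 927 higher and 258 lower genes were called. Depth limits LIN37 and CCND2 most, which had the lowest values. How far counting error adds to the spread between libraries of the other members was not tested.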
